A study of Mus musculus with 4 samples.

Results

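Immediate early genes are transcribed at once when a cell receives a stimulus, by transcription factors that are already present, such as the serum response factor and CREB, and without new protein synthesis. Many encode transcription factors themselves, among them the Fos and Jun proteins, which pair to form AP-1, and many of their messenger RNAs are short-lived because elements rich in A and U recruit decay factors. Myc is induced in the same way by growth signals and, in the gut epithelium, is known as a target of Wnt signalling in the crypts. The genes described here are 9 immediate early genes (Fos, Fosb, Jun, Junb, Jund, Egr1, Ier2, Atf3 and Klf6) and Myc, chosen by name. Every probe set whose only gene symbol was 1 of these 10 was taken. Each gene had 1 such probe set, so 10 of 34760 probe sets and 10 of 19937 genes were followed, and 0 further probe sets named 1 of the 10 together with another gene.

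The measurements came from CLIP-chip of intestinal epithelium, in which ultraviolet light links RNA to the proteins bound to it, antibodies then pull these complexes down, and the RNA is hybridised, here to Affymetrix Mouse Gene 1.0 ST arrays. The Msi1 array carried RNA precipitated with an antibody to Musashi1, an RNA-binding protein, the hnRNP array RNA precipitated with an antibody to an hnRNP protein that the labels do not name further, the IgG array RNA from the control precipitation, and the input array RNA taken with no antibody. All 4 groups shared strain, stage and tissue (C57BL/6, adult, intestinal epithelium, with harvest of intestines in the descriptions), carried no allele or agent that the labels name, and had 1 array each, with 100 ng of RNA combined from 2 experiments. Without replicates no difference could be tested, and values are described by size. In pooled tissue RNA, fewer cells of a type and less RNA per cell cannot be told apart.

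Signals are log2 values as deposited, with base 2 inferred from their range. Each array had its own background floor, set at the 95th percentile of the signals of 1210 probe sets of 1196 odorant and pheromone receptor genes (Olfr and Vmn): 4.74 on Msi1, 5.17 on hnRNP, 5.26 on IgG and 4.08 on input. Signals on input were spread more widely than on the precipitations (SD over all probe sets 1.38 on Msi1, 1.20 on hnRNP, 1.17 on IgG and 2.01 on input). Of 12 epithelial marker genes, 12 were above the floor on Msi1, 9 on hnRNP, 8 on IgG and 12 on input, with medians of 7.26 on Msi1, 5.66 on hnRNP, 5.78 on IgG and 10.4 on input. Of 14 leukocyte markers, 3 were above it on Msi1, 3 on hnRNP, 2 on IgG and 8 on input, and of 14 stroma and muscle markers, 7 on Msi1, 5 on hnRNP, 5 on IgG and 6 on input.

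To show where the short promoter motifs named below lie, the 300 bases around the annotated start (250 before it and 50 after) are shown for Fos, the prototype of the group, and for Atf3 and Klf6, the members furthest above IgG in the Msi1 precipitation. The sequences are those of RefSeq on GRCm38.p6, each printed 5′ to 3′ on the gene's own strand. Capitals mark TGACG on either strand, which is the core of the cyclic AMP response element TGACGTCA and overlaps it, the TATA box TATAAA, and the E-box CACGTG, the kind of site that Myc and its partner Max bind. The arrays measured RNA and not these promoters.
Fos, chr12:85473640-85473939, plus strand: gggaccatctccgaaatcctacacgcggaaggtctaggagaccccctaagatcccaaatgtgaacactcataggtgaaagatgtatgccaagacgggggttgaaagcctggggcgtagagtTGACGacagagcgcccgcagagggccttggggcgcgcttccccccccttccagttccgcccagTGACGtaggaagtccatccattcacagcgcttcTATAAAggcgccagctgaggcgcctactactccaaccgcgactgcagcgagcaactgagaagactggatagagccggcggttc
Atf3, chr1:191183284-191183583, minus strand: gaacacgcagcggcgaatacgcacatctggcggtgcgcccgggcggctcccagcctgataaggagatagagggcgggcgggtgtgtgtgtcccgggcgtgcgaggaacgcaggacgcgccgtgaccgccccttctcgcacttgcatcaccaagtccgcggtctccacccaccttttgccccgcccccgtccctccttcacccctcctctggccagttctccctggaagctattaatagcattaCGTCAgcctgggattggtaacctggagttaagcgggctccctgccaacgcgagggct
Klf6, chr13:5861239-5861538, plus strand: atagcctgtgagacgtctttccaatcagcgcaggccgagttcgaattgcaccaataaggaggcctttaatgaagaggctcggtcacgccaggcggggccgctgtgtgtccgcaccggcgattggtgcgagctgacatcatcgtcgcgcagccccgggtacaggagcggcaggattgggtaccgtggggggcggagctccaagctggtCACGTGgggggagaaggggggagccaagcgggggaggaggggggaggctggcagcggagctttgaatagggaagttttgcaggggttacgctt

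Of the 10 genes, 7 had a promoter of this length among the sequences used, and Egr1, Ier2 and Myc had none. All motifs were searched on both strands. TGACG was found in 4 of the 7, namely Fos (2 matches), Fosb, Junb and Atf3, against 20.8% of all 32817 promoters of the same length and 32.6% of the 10761 genes with a promoter that passed the floor on any array. In Fos the TATAAA match began at position -33 from the annotated start and the TGACG matches at -129 and -66. TATAAA was found in Fos and, at the annotated start itself, in Junb, against 13.6% of all promoters and 9.97% of the genes that passed the floor. CACGTG was found in Klf6 alone of the 7, at -43, against 7.15% of all promoters and 11.1% of the genes that passed the floor. The GC box GGGCGG, on either strand, was found in 5 of the 7 (Atf3, Fos, Fosb, Jun and Klf6), against 35.6% of all promoters and 64.2% of the genes that passed the floor, so the count is near the share among such genes. The full TGACGTCA, the AP-1 site TGAGTCA and the CArG box of the serum response factor were found in 0 of the 7 windows, against 1.79% of all promoters for TGACGTCA, 5.20% for TGAGTCA and 1.63% for the CArG box. Among the genes that passed the floor the shares were 3.29% for TGACGTCA, 4.84% for TGAGTCA and 1.64% for the CArG box. Counts of 0 are near these shares. Bases outside the windows were not searched, so the genes may hold such sites further away.

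The 10 genes fell into several patterns over the 4 arrays. Input was the brightest array for 8 of them, and for 7 (Fos, Fosb, Jun, Egr1, Atf3, Klf6 and Myc) it was at least 2-fold above every precipitation as deposited. Among the precipitations, Msi1 was the brightest for 4 genes (Fos, Jun, Atf3 and Klf6) and the dimmest for another 4 (Fosb, Junb, Jund and Myc). The 3 precipitations lay within 2-fold of each other for 8 of the 10 genes, with Klf6 and Atf3 the exceptions, and 8 genes were above the floor on all 4 arrays, with Ier2 and Klf6 the exceptions.

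**Figure D1:**
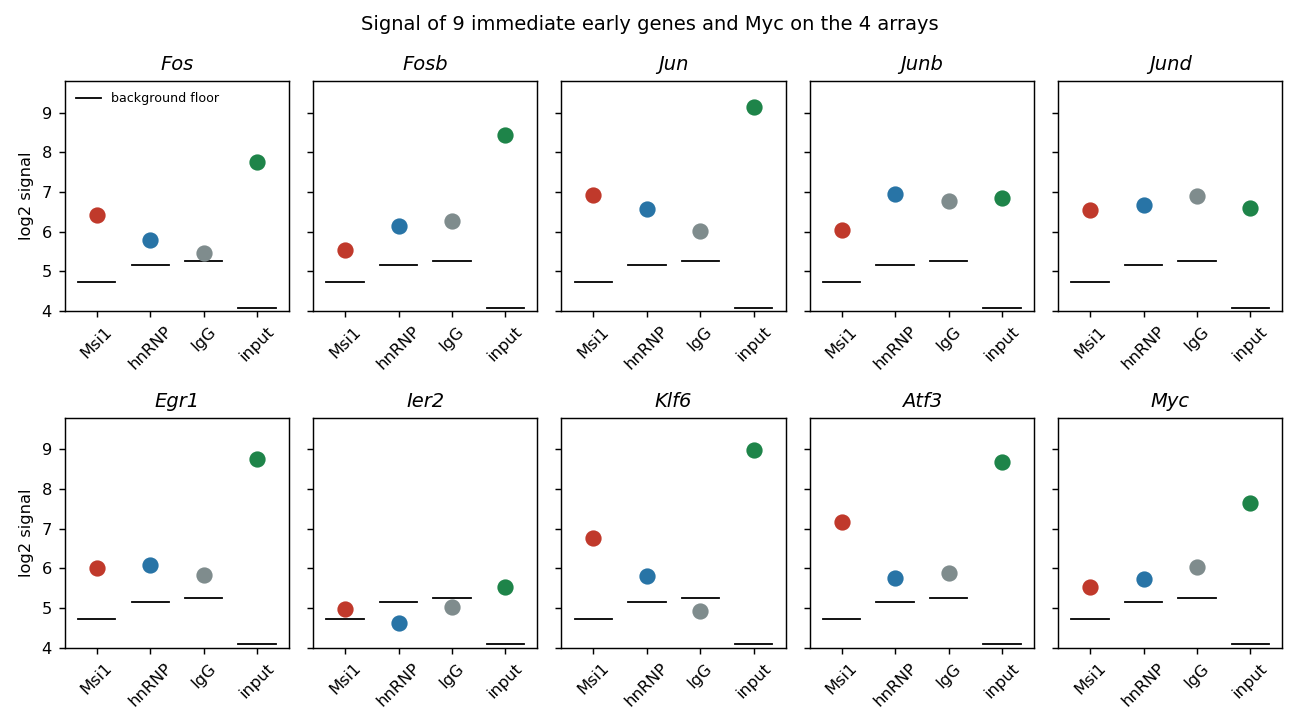
The log2 signal (y axis) of each gene's probe set on the Msi1, hnRNP, IgG and input arrays (x axis), 1 point per array, with each array's background floor as a black bar. Input stands at least 2-fold above the other points in 7 panels. Jund has nearly level points, and so has Junb but for a lower Msi1 point. Klf6 and Atf3 have an Msi1 point clear of IgG.

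Fos, the prototype of the AP-1 transcription factors, read 6.42 in Msi1, 5.79 in hnRNP, 5.46 in IgG and 7.76 in input. The order was thus input, Msi1, hnRNP and IgG, and the IgG value lay only 0.20 above its floor. Msi1 exceeded IgG by 0.96 log2 units (1.94-fold), just short of the 2-fold threshold. Fosb, the closest relative of Fos among the 10, had another order. It read 5.54 in Msi1, 6.15 in hnRNP, 6.26 in IgG and 8.44 in input, so that Msi1 was its dimmest array and lay 0.72 below IgG.

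Jun, the partner of Fos in AP-1, read 6.92 in Msi1, 6.57 in hnRNP, 6.01 in IgG and 9.14 in input. It had the same order of arrays as Fos and exceeded IgG in Msi1 by 0.90 (1.87-fold). Its relatives did not share this order. Junb, which often acts as a brake on Jun, read 6.05 in Msi1, 6.95 in hnRNP, 6.79 in IgG and 6.86 in input, so that 3 arrays were nearly level and Msi1 was the low one, 0.74 below IgG. Jund, which is expressed in many resting cells, read 6.55 in Msi1, 6.67 in hnRNP, 6.91 in IgG and 6.60 in input. Its 4 values spanned less than 2-fold as deposited. Above the floors they stood 1.81 in Msi1, 1.51 in hnRNP, 1.65 in IgG and 2.52 in input. Level signals are therefore not equal heights above background.

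Egr1, a zinc finger factor induced by growth factors through ERK signalling, read 6.00 in Msi1, 6.09 in hnRNP, 5.85 in IgG and 8.76 in input. Its 3 precipitations were the most alike of all 10 genes, within 0.24 of each other, and all were far below input. Ier2, a gene of the immediate early response family, read 4.97 in Msi1, 4.63 in hnRNP, 5.02 in IgG and 5.54 in input. Ier2 was below the floor in hnRNP and IgG and only 0.23 above it in Msi1, so the order of its precipitations is not measured.

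Klf6, a Krüppel-like zinc finger factor, read 6.76 in Msi1, 5.80 in hnRNP, 4.93 in IgG and 8.99 in input. The IgG value was below its floor, and the 3 precipitations spanned 1.83, the widest range of the 10 genes. Atf3, a stress-induced member of the ATF and CREB family that pairs with Jun proteins, read 7.18 in Msi1, 5.75 in hnRNP, 5.89 in IgG and 8.69 in input. For Atf3 the hnRNP and IgG values were close to each other and Msi1 stood above both.

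Myc, a transcription factor that drives growth and proliferation, read 5.54 in Msi1, 5.72 in hnRNP, 6.04 in IgG and 7.66 in input. All values were above their floors, but on the precipitations by only 0.80 in Msi1, 0.56 in hnRNP and 0.77 in IgG. Msi1 was the dimmest array for Myc, as it was for Fosb.

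Msi1 was set against IgG because the study ranked its transcripts by enrichment over that control. Of the 10 genes, 2 were higher in Msi1 by 2-fold or more, beside a background of 18.6% of the 10372 genes that passed the floor on either array, and 0 were lower by as much, beside 6.9%. The count of 2 is thus near the share over all genes. Klf6 exceeded IgG by 1.83, or at least 2.82-fold against the IgG floor, and 8.17% of all genes tested had a larger difference. Atf3 exceeded IgG by 1.29 (2.44-fold), and 13.7% of genes had a larger difference.

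The other 8 genes were within 2-fold of IgG. Fos and Jun came closest to the threshold, as given above, and with each array centred on its median, which moved the median of all genes by 0.13, they passed it (1.09 for Fos and 1.04 for Jun), so that 4 genes were higher, beside 21.0% of all genes higher and 4.92% lower under that scaling. Egr1 differed by 0.15 (-0.043 with quantile normalization) and Ier2 by -0.05, and Jund (-0.37), Myc (-0.50), Fosb (-0.72) and Junb (-0.74) were lower in Msi1 by less than 2-fold. Receptor genes, which lie mostly at background, had a median of -0.38 here, with 16.1% at least 2-fold lower and 0.84% higher. Jund and Myc stood slightly further above the floor in Msi1 (1.81 and 0.80) than in IgG (1.65 and 0.77). Fosb and Junb stood less far above it in Msi1 (0.81 and 1.31) than in IgG (1.00 and 1.52). With quantile normalization Klf6 was still at least 2-fold higher (1.98) and Atf3 was just below 2-fold (0.96), while Fosb (-1.07) and Junb (-1.20) were at least 2-fold lower. Under quantile normalization 22.3% of all genes were higher and 15.2% lower, so the 2 lower genes of 10 are near the background. With each value below its own array's floor raised to that floor, Klf6 (1.495) and Atf3 (1.29) were the 2 genes called. All genes were higher in 10.8% of cases, and 0 of the 10 genes were lower, beside 3.88%. The median difference was 0.05 over the 10 genes and 0.06 over all genes tested, and with values raised to the floor -0.071 over the 10 genes and -0.20 over all genes. The floor was higher on IgG (5.26) than on Msi1 (4.74), so raising can itself shift a difference down. For Ier2, whose brighter IgG value was the one raised, it went from -0.05 to -0.296. The raised medians therefore hold part of the gap between the floors. In the same comparison 7 of 12 epithelial markers were above IgG by 2-fold or more and 0 below it by as much, and their part in the values of Klf6 and Atf3 was not tested.

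**Figure D2:**
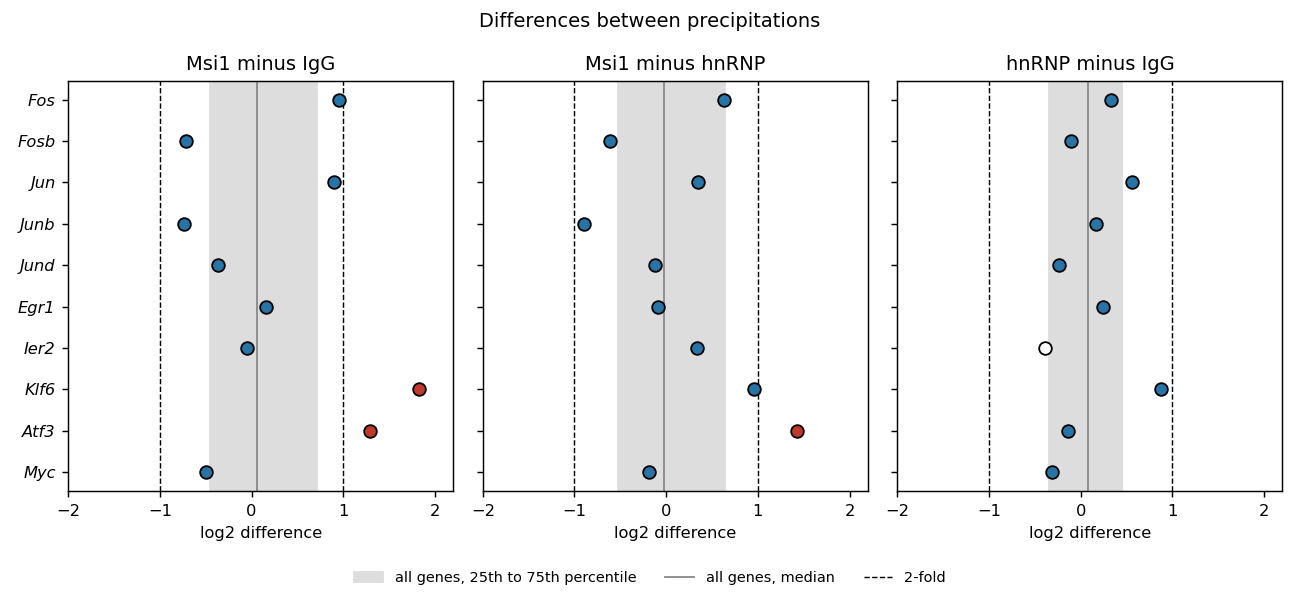
Log2 differences (x axis) of the 10 genes between precipitations, with the 25th to 75th percentiles of all genes tested in grey, their median as a line and 2-fold as dashed lines. Red points are at least 2-fold apart (Klf6 and Atf3 for Msi1 minus IgG, Atf3 for Msi1 minus hnRNP), blue points are not, and the open point (Ier2) was below the floor on both arrays.

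Against hnRNP, which is the other antibody used, Atf3 again stood out. It was 1.43 higher in Msi1 than in hnRNP (2.70-fold), and was the only 1 of the 10 genes past 2-fold upward as deposited, beside 17.4% of 10678 genes. None was at least 2-fold lower (0 of 10, beside 7.79% of genes). Klf6 exceeded hnRNP by 0.96 (1.94-fold), Fos by 0.63 and Jun by 0.35, while Junb (-0.90) and Fosb (-0.61) were the furthest below it. The remaining 4 genes lay between -0.19 (Myc) and 0.33 (Ier2, whose hnRNP value was below its floor). Receptor genes, mostly at background, had a median of -0.32 in this comparison. Median centring took Klf6 past 2-fold (1.08), and quantile normalization took Junb past 2-fold lower (-1.31).

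Between hnRNP and IgG no gene of the 10 passed 2-fold as deposited. Of the 9 genes that passed the floor on either array, 0 were at least 2-fold higher in hnRNP, beside 6.28% of 7919 genes, and 0 were at least 2-fold lower, beside 4.51%. Klf6 was the furthest above IgG, at 0.87, or at least 1.45-fold against the IgG floor, and passed 2-fold with quantile normalization (1.23). Jun followed at 0.55, and the other 7 of the 9 lay between -0.32 (Myc) and 0.32 (Fos). Comparisons that share the IgG or the Msi1 array are not independent of each other, so the side by side values of Klf6 and Atf3 above rest in part on the same arrays.

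Each precipitation was also set against input, the starting RNA. As deposited, the same 7 genes (Fos, Fosb, Jun, Egr1, Atf3, Klf6 and Myc) were at least 2-fold lower in every precipitation than in input. That made 7 of 10 in Msi1, beside 38.3% of 12784 genes, 7 of 10 in hnRNP, beside 43.3% of 12882 genes, and 7 of 10 in IgG, beside 44.7% of 12696 genes. At least 2-fold higher than input were 0 of the 10 genes in each precipitation, beside 11.8% of genes in Msi1, 18.7% in hnRNP and 16.6% in IgG. The 3 comparisons share the input array and are not separate evidence.

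These directions against input depended on the scaling. With loess centring, which removes the mean difference at each signal level, Fos and Atf3 turned slightly higher in Msi1 than in input (0.36 and 0.40), Fosb was the 1 gene still at least 2-fold lower (-1.22), and Jund was at least 2-fold higher (1.45). With quantile normalization 2 genes, Fosb (-1.43) and Egr1 (-1.26), were at least 2-fold lower in Msi1. With loess centring 7 of the 7 genes changed direction in hnRNP and 6 in IgG, and Klf6 in IgG was the exception, still lower by 2-fold or more (-1.25). Receptor genes, which lie mostly at background, were at least 2-fold higher than input in 20.9% of cases in Msi1, 41.8% in hnRNP and 47.6% in IgG. A level near the floor is therefore not comparable between input and a precipitation.

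Within these limits, the sizes of the deposited differences from input set the genes apart from each other. Fosb (-2.89) and Egr1 (-2.76) were the furthest below input in Msi1, and 94.2% and 93.2% of all genes tested had a higher value. Klf6 (-2.23), Jun (-2.23) and Myc (-2.12) followed, and Atf3 (-1.51) and Fos (-1.34) were the least reduced of the 7. In IgG the order was another, with Klf6 the furthest below input (-4.06, at least 13.2-fold against the IgG floor), then Jun (-3.13), Egr1 (-2.91), Atf3 (-2.80), Fos (-2.30), Fosb (-2.17) and Myc (-1.62). In hnRNP the 7 values ran from -3.19 (Klf6) to -1.94 (Myc). Junb, Jund and Ier2 were within 2-fold of input in all 3 precipitations as deposited. The median over the 10 genes was -1.82 in Msi1, -2.13 in hnRNP and -2.23 in IgG, and over all genes tested it was -0.57 in Msi1, -0.65 in hnRNP and -0.71 in IgG. All 12 epithelial markers were at least 2-fold lower than input in each precipitation too as deposited (in Msi1, 8 with quantile normalization and 4 with loess centring, which put 2 higher), and their part in these values was not tested.

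**Figure D3:**
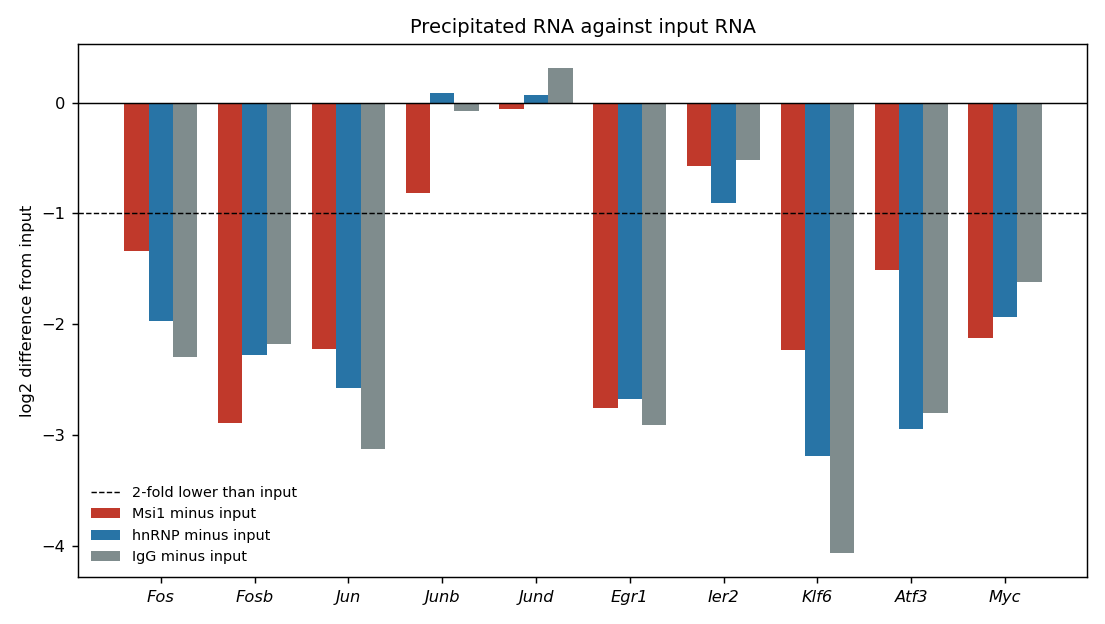
Log2 difference from input (y axis) of each gene in Msi1, hnRNP and IgG, 1 bar per array, with the dashed line at 2-fold lower. The bars of 7 genes pass the line in all 3 precipitations. Among these 7, Msi1 has the shortest bar for Fos, Jun, Klf6 and Atf3, IgG for Fosb and Myc, and hnRNP for Egr1.

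Likeness of pattern was measured as the root mean square distance over the 4 arrays between log2 values centred on each gene's mean. Among the 10 genes, Jun and Egr1 were nearest each other (0.27), as were Fosb and Myc (0.28) and Junb and Jund (0.32), while the nearest to Fos was Jun (0.35). Between 306 and 2441 of the 13596 genes that passed the floor on any array were nearer to a given gene than its nearest fellow among the 10. Outside the 10, the nearest to Fos were Atpaf1 (0.014), Pfkfb2 (0.038) and Zfp410 (0.048), the nearest to Jun were Dhrs4 (0.036), Ube2d1 (0.038) and Mier3 (0.046), and the nearest to Myc were Stambpl1 (0.018), Pom121 (0.027) and Cgref1 (0.028). Of these 9 genes, Cgref1 alone was above the floor on all 4 arrays. Stambpl1 was below it in Msi1, hnRNP and IgG, the 3 genes nearest to Fos and Mier3 in hnRNP and IgG, Dhrs4 and Ube2d1 in IgG, and Pom121 in hnRNP. The distances rest on 4 values per gene and describe these arrays only. On GRCm38.p6, Junb, Jund and Ier2 all lie on chromosome 8, and Junb and Ier2 have 17 protein-coding genes between them.

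For the related gene lists, counts in Msi1 against IgG stand beside the 18.6% of all genes higher and 6.9% lower by the values as read. Such a count can hold genes whose bound against the floor is under 2-fold, so each is also given with values raised to the floor, an alternative chosen after seeing the data, beside 10.8% of all genes higher and 3.88% lower. Each array's values were raised to its own floor, so the raised medians also hold part of the gap between the IgG and Msi1 floors. Counts with median centring stand beside 21.0% of all genes higher and 4.92% lower. For quantile normalization these shares were 22.3% and 15.2%, and for loess centring 20.1% and 6.41%. In the same comparison 7 of 12 epithelial markers were higher by both counts (median 1.37), and their part in the values of these lists was not tested.

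Other immediate early genes lay on both sides of IgG in Msi1. Of the 37 of 42 above the floor, 4 were higher and 4 lower by 2-fold as read, with a median of -0.14, and 3 were higher and 1 lower with values raised to the floor. The higher ones were Mcl1, an inhibitor of apoptosis (2.08, at least 2.65-fold), Btg2, an antiproliferative gene (1.85, at least 2.88-fold), Tsc22d1 (1.61, at least 2.59-fold) and the atypical I-kappaB gene Nfkbiz (1.15, at least 1.26-fold). The lower ones were the stress-response gene Gadd45g (-1.18, at least 1.90-fold), the prostaglandin synthase gene Ptgs2 (-1.12, at least 1.53-fold), the small Maf gene Mafk (-1.10, 2.14-fold) and the Fos relative Fosl1 (-1.06, at least 1.97-fold). With median centring 6 were higher and 1, Gadd45g, lower, and with quantile normalization 7 were higher and 7 lower. Against input, 22 of 40 were at least 2-fold lower in Msi1 as deposited and 2 higher, beside 38.3% of all genes lower and 11.8% higher. Under quantile normalization 6 were lower and 2 higher, beside 18.9% and 12.3% of all genes. Under loess centring 6 were lower and 6 higher, beside 18.8% and 17.4%. The furthest below input was Dusp1, a phosphatase gene that acts as a brake on MAP kinases and was at least 15.5-fold lower as deposited (-4.25, and -2.75 with loess centring).

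Of 21 kinases and transcription factors upstream of immediate early genes that were above the floor, 7 were higher and 2 lower by 2-fold as read (median 0.70), but with values raised to the floor 2, Mapk8 and Atf1, were higher and 0 lower (median 0.37), which is near the background. The kinase genes Rps6ka3 (2.44, at least 1.56-fold), Mapk8, which encodes a Jun kinase (2.10, at least 2.23-fold), and Mapk14, which encodes p38 (1.36, at least 1.96-fold), were among the higher ones with the CREB relative Atf1 (1.36, at least 2.202-fold), and Mrtfa (-1.12, at least 1.76-fold) and Elk1 (-1.002, at least 1.95-fold), both partners of the serum response factor, were the lower. The 2 lower genes were within 2-fold with median and loess centring, while 9 genes were higher with median centring and 8 with loess centring. Of 16 AP-1 and ATF partners, 7 were higher and 0 lower as read (median 0.81), and 4 were higher and 0 lower with values raised to the floor (median 0.33). Atf2, which pairs with Jun, exceeded IgG by 3.94 (at least 8.25-fold), Nfe2l2, a factor of the oxidative stress response, by 2.57 (at least 5.82-fold), Atf4 by 1.32 (2.49-fold) and Maf by 1.27 (2.42-fold). With quantile normalization Atf4 (0.83) and Maf (0.69) were within 2-fold, 6 partners were higher and 2 lower, and with loess centring Maf (0.92) was within 2-fold. The Atf2 value read 8.31 in Msi1, 4.47 in hnRNP, 4.37 in IgG and 7.53 in input, so that Msi1 was its brightest array.

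Among Myc's partners few differed between Msi1 and IgG, and its targets were spread to both sides. In the Myc network 1 of 15 genes was past 2-fold above IgG as read, 0 were with values raised to the floor, and 0 were as far below IgG by either count (median -0.13, which was 0.0059 with median centring). That gene was Max, the obligate partner of Myc (1.06, at least 1.52-fold), while the Myc paralogs Mycn (-0.37) and Mycl (-0.76), named after their values were seen, were lower by less than 2-fold as deposited, and Mycl passed 2-fold with quantile normalization (-1.06). Of 25 genes known as Myc targets, 8 were higher and 2 lower as read (median -0.16), and 5 were higher and 2 lower with values raised to the floor (median -0.18). The transferrin receptor gene Tfrc (3.12, at least 6.10-fold), the chaperonin gene Hspd1 (3.05, at least 7.70-fold), the cyclin gene Ccnd2 (2.61, 6.09-fold) and the nucleolin gene Ncl (2.24, 4.72-fold) led the higher ones, and the cochaperonin gene Hspe1 (-1.39) and the fibrillarin gene Fbl (-1.03) were the lower. The median of the targets above the floor stayed below 0 with median centring (-0.021), quantile normalization (-0.14) and loess centring (-0.018), and 7 or 8 were higher. Over all 30 targets found, detected or not, it was above 0 instead. That median was 0.11 as deposited, 0.25 with median centring, 0.14 with quantile normalization and 0.20 with loess centring. Fbl was within 2-fold with median centring (-0.89).

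Genes that bind elements rich in A and U or act in mRNA decay had a median of 1.40, with 11 of 17 past 2-fold above IgG as read and 0 below it by as much. With values raised to the floor 7 were higher and 0 lower (median 0.77). Both medians were the highest of the 6 related lists, beside 1.37 for the epithelial markers as read and with raised values. The exosome gene Exosc9 (3.04, at least 3.28-fold), the Pumilio gene Pum2 (2.84, at least 3.71-fold), the deadenylase gene Cnot7 (2.47, 5.54-fold) and Hnrnpd, which encodes AUF1 (2.30, at least 2.74-fold), were the highest. Between 12 and 13 of the 17 were higher, and 0 lower, with median centring, loess centring and quantile normalization. Of all genes, 21.0%, 20.1% and 22.3% were higher under these 3 scalings. Many genes of these lists were below the floor in IgG and entered through the Msi1 array alone, so these medians describe the genes detected and not the lists as a whole. Over all members found, detected or not, the medians were 0.88 for the decay genes, 0.79 for the AP-1 and ATF partners, 0.46 for the upstream genes, 0.11 for the Myc targets, -0.16 for other immediate early genes and -0.23 for the Myc network, against 1.37 for the epithelial markers and -0.19 over all genes.

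**Figure D4:**
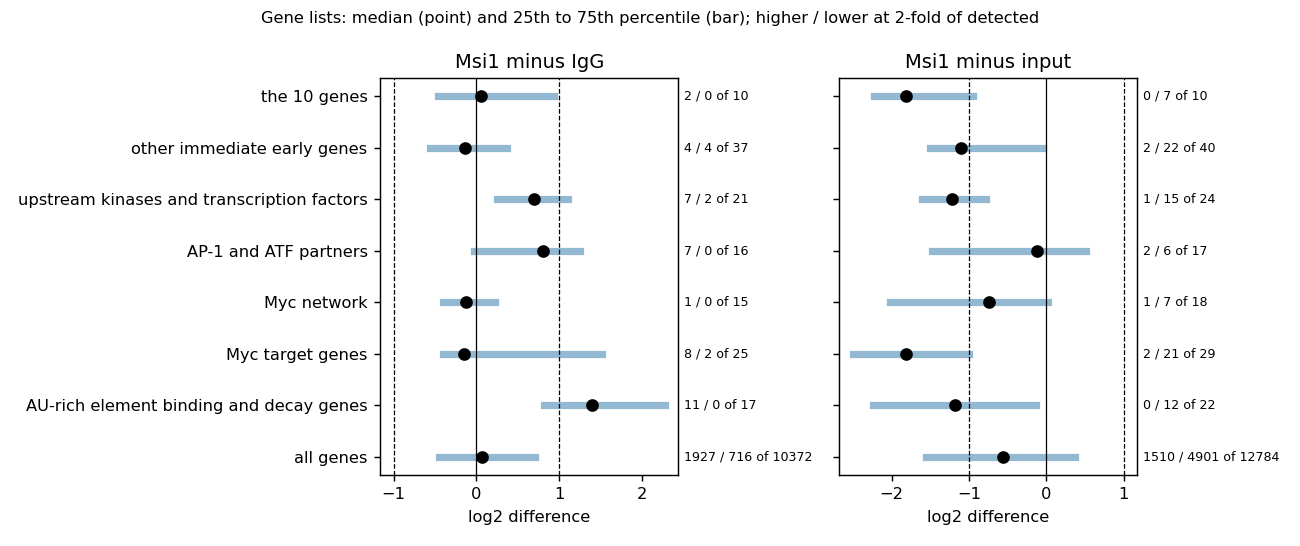
Median (point) and the 25th to 75th percentiles (bar) of the log2 differences (x axis) of the 10 genes, 6 related lists and all genes, for Msi1 minus IgG and Msi1 minus input, with the number 2-fold higher and lower by the values as read, of those above the floor, beside each row. The 10 genes sit at the median of all genes against IgG (0.05 and 0.06) and below it against input (-1.82 and -0.57).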

How the data were processed

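The authors' deposited table held log2 signals, 1 summarized value per probe set for each array. Per the submitters' processing notes affy was used, with no version named; the steps of background correction and normalization were not given in the sources used here. That the logarithm has base 2 was inferred from the values, and the arrays' distributions differ, so no quantile normalization had been applied at this level. Arrays were grouped by the antibody in the labels.

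Genes were named from the platform annotation. Of 34760 probe sets, 21640 had 1 gene symbol, 1321 had several and 11799 had none here, and those with 1 symbol gave 19937 genes. For genes with several probe sets the one with the highest mean was taken. A gene entered a comparison if above the floor on at least 1 of its arrays, and was called at 2-fold. Where the dimmer value was below the floor, the fold is a lower bound against it. The 10 genes and the 10 lists of other genes (13 of 227 symbols were not matched) were chosen with earlier results of these data known. All 10 genes were named with every probe set, and up to 4 genes in each direction per list. No p-values were computed. The steps were tested on simulated data. The alternatives tried were loess centring (span 0.4), quantile normalization and median centring, other floors (99th percentile, none, both arrays, values on either array raised to that array's floor), 1.5-fold and 3-fold thresholds, and other choices of probe set. Python 3.11.15, pandas 2.3.3, numpy 2.4.6, statsmodels 0.14.6 and matplotlib 3.10.9 were used.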

Additional observations from a re-analysis of the deposited data

How the results depend on the processing

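No paired analysis was possible because each group had 1 array, and for the same reason none could be left out. The number of arrays and the signal over background limit every value. Other probe set choices could not move the 10 genes, which have 1 probe set each. Of 108 counts of the 10 genes called under the other alternatives, 83 stayed within 1.5 times the reported count and 25 did not. The floor at the 99th percentile, no floor and values raised to the floor moved none. Dropping the floor could not move any, because it added only Ier2 in hnRNP against IgG (-0.39, under 2-fold). Stricter floors and the 3-fold threshold can only remove calls, so counts of 0 could not move under them. The number that stayed is thus in part fixed in advance.

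Median centring gave 4 genes higher in Msi1 than in IgG and 2 higher in Msi1 than in hnRNP (beside 21.0% and 19.9% of all genes). Quantile normalization gave 1 higher and 2 lower for Msi1 against IgG (22.3% and 15.2%), 1 higher in hnRNP than in IgG (12.8%), 1 lower in Msi1 than in hnRNP (15.8%), 2 lower in Msi1 than in input (18.9% of all genes), 2 higher and 2 lower in hnRNP than in input, and 2 higher and 4 lower in IgG than in input, where 22.7% and 31.2% of all genes were called in hnRNP and 20.9% and 32.0% in IgG. Loess centring gave 1 higher and 1 lower in Msi1 than in input, 3 higher and 0 lower in hnRNP than in input, and 4 higher and 1 lower in IgG than in input, beside 17.4% and 18.8% of all genes in Msi1, 24.1% and 25.2% in hnRNP and 23.6% and 24.4% in IgG. Detection on both arrays gave 1 higher in Msi1 than in IgG, since Klf6 was below the IgG floor (7.87%). A 1.5-fold threshold gave 4 higher and 2 lower for Msi1 against IgG (beside 28.7% and 19.7% of all genes), 3 higher and 2 lower in Msi1 than in hnRNP (26.5% and 22.6%), and 1 higher in hnRNP than in IgG (18.5%). A 3-fold threshold gave 1 higher in Msi1 than in IgG (10.2%) and 0 in Msi1 than in hnRNP (10.3%). The 1 gene was Klf6, by its value as read, while its bound against the IgG floor was 2.82-fold.

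Single differences of at least 2-fold turned round under loess centring alone, by its removal of the mean difference at each signal level. In Msi1 against input these were Fos (0.36) and Atf3 (0.40). In hnRNP against input they were Fos (0.58), Fosb (0.91), Jun (1.26), Egr1 (0.67), Atf3 (0.16), Klf6 (0.12) and Myc (0.51), and in IgG against input Fos (0.081), Fosb (1.10), Jun (0.40), Egr1 (0.31), Atf3 (0.41) and Myc (1.06). Of the other 405 single differences, 18 dropped below and 18 passed 2-fold. Over all alternatives, Msi1 against IgG ran from 1.495 to 1.98 for Klf6, 0.96 to 1.42 for Atf3, 0.90 to 1.09 for Fos and 0.57 to 1.04 for Jun.

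Of all genes called, the share higher was 72.9% in Msi1 against IgG as deposited (1927 higher and 716 lower), 59.4% with quantile normalization (2312 and 1582) and 81.1% with median centring. In Msi1 against hnRNP it was 69.1% as deposited, 79.7% with median centring, 57.1% with quantile normalization and 80.1% with loess centring. Against input it was 23.6% in Msi1 as deposited (13.4%, 39.4% and 48.0% with the same 3 scalings), 30.1% in hnRNP (42.1% with quantile normalization and 48.8% with loess) and 27.1% in IgG (39.4% and 49.1%). Median centring moved the median of all genes by -0.25 in Msi1, -0.38 in hnRNP and -0.39 in IgG against input.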
